A study of Mus musculus with 24 samples.

Results

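Mitochondrially encoded genes were taken as every row of the gene tables whose name starts with mt-, which gave 37 of the 43629 gene identifiers listed: 13 protein genes, 2 ribosomal RNAs (rRNAs) and 22 transfer RNAs (tRNAs). The RNA was from livers of C57BL/6 mice, a common inbred strain, all wild type. The old mice were about 19 months of age and the young mice about 4 months. No treatment, transgene or deletion is named for either age. Livers were collected at zeitgeber time (ZT, hours after lights on) 2, 6, 10, 14, 18 and 22, over 2 days. With 2 replicates per age and time there were 12 old and 12 young libraries. Whether replicates were separate animals, pools or days is not stated, so each p measures only the spread between these libraries, which may be technical. Messenger RNA was selected with oligo-dT and read strand by strand in single reads of 50 bases. Each library held the equivalent of 8699000 to 13653000 such reads.

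Several libraries stood apart for these genes, and the main results that rest on them are given with and without them. Both old ZT14 libraries had the lowest mitochondrial share of all 24. In 3 other libraries (old ZT2 replicate 2, old ZT10 replicate 1 and young ZT2 replicate 1) mt-Co2 was under 0.1 of the level of its nuclear copy. Young ZT18 replicate 2 held markers of pancreatic acinar cells at a summed level of 3555, against 0 to 11.7 in every other library. Liver identity was checked on 8 hepatocyte genes such as albumin, whose summed level was 80455 to 108210 in old and 74777 to 106840 in young libraries. Levels are TPM (transcripts scaled to a fixed total per library), a value per length, divided by a scaling factor per library that matches the bulk of genes between libraries. They are called scaled TPM.

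The mitochondrial genome is a small circle present in many copies per cell. Both of its strands are transcribed into long precursors, from which tRNAs are cut like punctuation marks to free the messenger and ribosomal RNAs between them. The proteins are core subunits of respiratory complexes I, III and IV and of ATP synthase, which are completed by subunits encoded in the nucleus, and hepatocytes are rich in mitochondria. Most mitochondrial messengers carry short tails of adenines, added by a mitochondrial poly(A) polymerase. Mature tRNAs do not, so oligo-dT selection is not designed to capture tRNAs. Whether all messengers, light-strand mt-Nd6 among them, were captured alike was not tested.

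In the deposited annotation 28 members lie on the plus strand of the reference and are transcribed from the heavy strand: 12 protein genes, both rRNAs and 14 tRNAs. The other 9 are light-strand genes, mt-Nd6 and 8 tRNAs. Overlaps of 1 to 43 bases join 9 pairs of neighbours. The genes of the 2 membrane subunits of ATP synthase, mt-Atp8 (MT:7766-7969, GRCm38) and mt-Atp6 (MT:7927-8607), share 43 bases, shown in capitals at the end of mt-Atp8. A 50-base read from that stretch can belong to either gene. The tRNA gene mt-Td (MT:6942-7011), for aspartate, ends just before mt-Co2 (MT:7013-7696) and is shown because its level split the libraries. The sequences are from the GENCODE M21 transcripts of GRCm38.
mt-Atp8: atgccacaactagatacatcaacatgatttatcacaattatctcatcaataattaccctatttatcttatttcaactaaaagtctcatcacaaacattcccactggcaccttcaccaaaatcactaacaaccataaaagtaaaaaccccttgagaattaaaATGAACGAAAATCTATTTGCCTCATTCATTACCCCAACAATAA
mt-Td: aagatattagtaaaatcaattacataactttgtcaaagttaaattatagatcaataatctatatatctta

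Part of the mitochondrial genome is also present on mouse chromosome 1 as a run of pseudogenes, and reads of 50 bases cannot be placed between identical copies. Of the 37 members, 27 shared no window of 50 bases with an annotated nuclear transcript. All windows of mt-Co2 did so, 99.9% of mt-Co3, 99.5% of mt-Atp6, 98.8% of mt-Nd4l, 98.0% of mt-Nd3, 62.2% of mt-Nd4 and 51.1% of mt-Co1. The shares were 8.19% in mt-Nd2, 7.61% in mt-Nd5 and 1.04% in mt-Rnr2. No shared window was found for mt-Nd1, mt-Atp8, mt-Nd6, mt-Cytb, mt-Rnr1 or any tRNA. The search covered annotated transcripts only. In gene order mt-Ts1, mt-Td, mt-Tk, mt-Atp8, mt-Tg and mt-Tr lie between genes with pseudogenes in the chromosome 1 run. Whether they share sequence with unannotated stretches of that run was not checked.

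The chromosome 1 run (1:24611535-24616197, minus strand, GRCm38) holds 7 copies. Gm28661 (copy of mt-Co2), Gm10925 (mt-Atp6), Gm28437 (mt-Co3), Gm10222 (mt-Nd4l) and Gm28439 (the first 876 bases of mt-Nd4) matched their genes with 0 differences over the bases annotated. mt-Nd4l (MT:9877-10173) is printed whole, since Gm10222 (1:24612407-24612700) repeats all of it but the last 3 bases, in capitals. Gm28438 (1:24612775-24613119) differed from mt-Nd3 (MT:9459-9806) by T3C, counted from 1 at the start of the gene. Gm29216 (1:24615706-24616197) differed from mt-Co1 (MT:5328-6872) by T1056A, C1057T, A1059G, A1060G, C1062A and A1066T, counted in the same way. The first 60 aligned bases of both pairs are given with the differing bases in capitals.
mt-Nd4l: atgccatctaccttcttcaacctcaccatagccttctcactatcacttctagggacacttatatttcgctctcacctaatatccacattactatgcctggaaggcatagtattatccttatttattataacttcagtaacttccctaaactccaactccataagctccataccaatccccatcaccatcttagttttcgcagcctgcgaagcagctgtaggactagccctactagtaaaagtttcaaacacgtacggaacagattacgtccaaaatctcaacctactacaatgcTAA
mt-Nd3: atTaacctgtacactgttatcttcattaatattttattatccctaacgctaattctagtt
Gm28438: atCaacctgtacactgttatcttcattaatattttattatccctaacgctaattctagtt
mt-Co1: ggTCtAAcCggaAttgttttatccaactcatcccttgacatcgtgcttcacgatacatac
Gm29216: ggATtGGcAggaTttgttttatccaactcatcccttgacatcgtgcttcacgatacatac

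The deposited tables gave genes and copies nearly equal levels in most libraries where their sequences are the same, with exceptions in mt-Co2 and mt-Atp6. mt-Nd4l, a small membrane subunit of complex I, averaged 3699 ± 1009 scaled TPM, and Gm10222 averaged 3718 ± 1014 (SD, n = 24). The ratio of gene to copy stayed between 0.990 and 1.01 in all 24 libraries. For mt-Co3 the ratio to Gm28437 was 0.994 to 0.999. For mt-Nd3 it was 0.987 to 1.31, and for mt-Co1, which has a long stretch of its own, 1.002 to 1.25. mt-Nd4 was 1.05 to 1.94 times the level of its partial copy. mt-Atp6 was 0.9 to 1.1 times Gm10925 in 23 libraries and at 0.507 of it in old ZT14 replicate 1. mt-Co2 was 0.991 to 1.07 times Gm28661 in 21 libraries and under 0.1 of it in the other 3. How the authors' software divided such reads was not given in the sources used here, so levels of these 7 genes are levels of gene and copy jointly assigned. The 7 copies took 2.24% to 9.45% of TPM in old and 6.42% to 10.4% in young libraries.

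**Figure D1:**
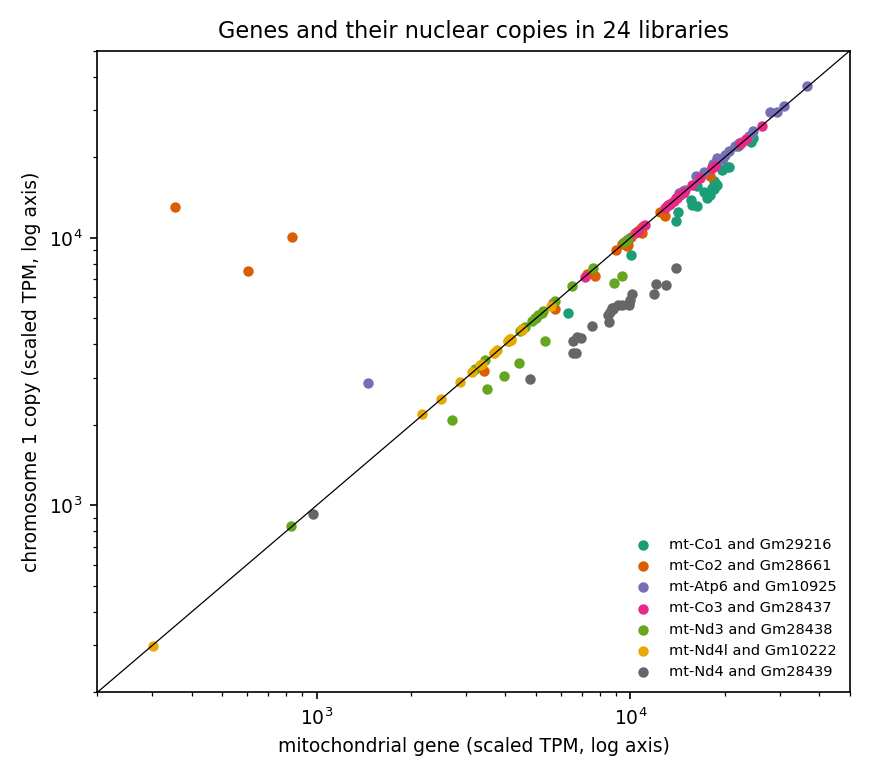
Scaled TPM of 7 mitochondrial genes (x axis, log) against their chromosome 1 copies (y axis, log), with 1 point per library and the line of equality. Most points lie on the line, mt-Nd4, mt-Co1 and some mt-Nd3 points lie under it, and 3 mt-Co2 points (354, 606 and 837 scaled TPM) and 1 mt-Atp6 point lie above it.

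Per length, the messenger RNAs spanned a wide range over the 24 libraries. mt-Atp6 averaged 19915 ± 7078 scaled TPM, mt-Co1 (the catalytic subunit of complex IV) 17786 ± 4156, mt-Cytb (cytochrome b of complex III) 16113 ± 5461 and mt-Co3 14974 ± 4939 (SD, n = 24). Next came mt-Nd1 at 10868 ± 3370, mt-Nd2 at 10662 ± 2785, mt-Co2 at 9701 ± 5099 and mt-Nd4 at 8677 ± 2725. Neighbours within each of these groups of 4 differed by less than 1 SD. mt-Nd3 (5367 ± 2258), mt-Nd5 (4038 ± 771) and mt-Nd4l followed, and mt-Atp8 (1222 ± 415) and mt-Nd6 (1192 ± 363), the light-strand messenger, were lowest and within 1 SD of each other. Mature transcripts share precursors here, so these 13 levels are not independent.

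In this RNA selected with oligo-dT the mitochondrial rRNAs were not the most abundant members per length. mt-Rnr2, the large-subunit rRNA, ran from 1419 through a median of 2211 to 2903 scaled TPM in old and from 1747 through 2537 to 5549 in young libraries. mt-Rnr1, the small-subunit rRNA, was listed at 0 in 12 libraries, 8 old and 4 young. Where it was above 0 it ranged from 497 to 2679 in old and from 117 to 5250 in young libraries. Whether the zeros are failed estimates could not be told from these tables, so no fold change is given for it. It is among the 32 members counted in the tests, and counts that turn on it are also given without it or said to include it.

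The 22 tRNA genes are 59 to 75 bases long, little longer than a read. Of these, mt-Tf, mt-Tn, mt-Tc, mt-Ts2 and mt-Tl2, stayed under a mean of 1 TPM and were not tested, and 17 were tested. The isoleucine tRNA mt-Ti averaged 313 ± 133 scaled TPM, mt-Tw (tryptophan) 183 ± 59.97, mt-Tl1 (leucine) 177 ± 50.7, mt-Tm (methionine) 93.9 ± 25.3 and mt-Tt (threonine) 75.0 ± 30.3 (SD, n = 24). mt-Td is described on its own later. The other 11 averaged 1.12 to 27.8 scaled TPM. Depth limits these rows: the coverage of mt-Tg, for glycine, corresponded to 4.44 to 16.9 reads per library, and that of mt-Ta, for alanine, to 0 to 1.84.

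Together the members averaged a lower share of the old libraries than of the young ones, and the ages lay farthest apart at ZT14. Their share of TPM was 11.5% ± 3.11 in old and 13.8% ± 1.70 in young libraries (SD, n = 12 each). In old it ran from 3.42% through a median of 12.3% to 15.4%, and in young from 11.5% through 13.2% to 17.1%. Without ZT14 in either age it was 12.6% ± 1.53 in old and 13.6% ± 1.63 in young libraries (SD, n = 10 each), with ranges that overlapped. At ZT14 it was 3.42% and 8.74% in old, against 16.4% and 13.1% in young. At ZT2 it was 12.7% and 10.7% in old, against 13.04% and 13.3% in young. At ZT10, where young was lowest, old held 10.9% and 11.8% and young 11.5% and 12.2%. At ZT22 old held 15.4% and 12.7% and young 17.1% and 13.002%. No p is given for this share, which is a sum over the members. In bulk tissue, fewer cells of a type and less RNA per cell cannot be told apart.

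**Figure D2:**
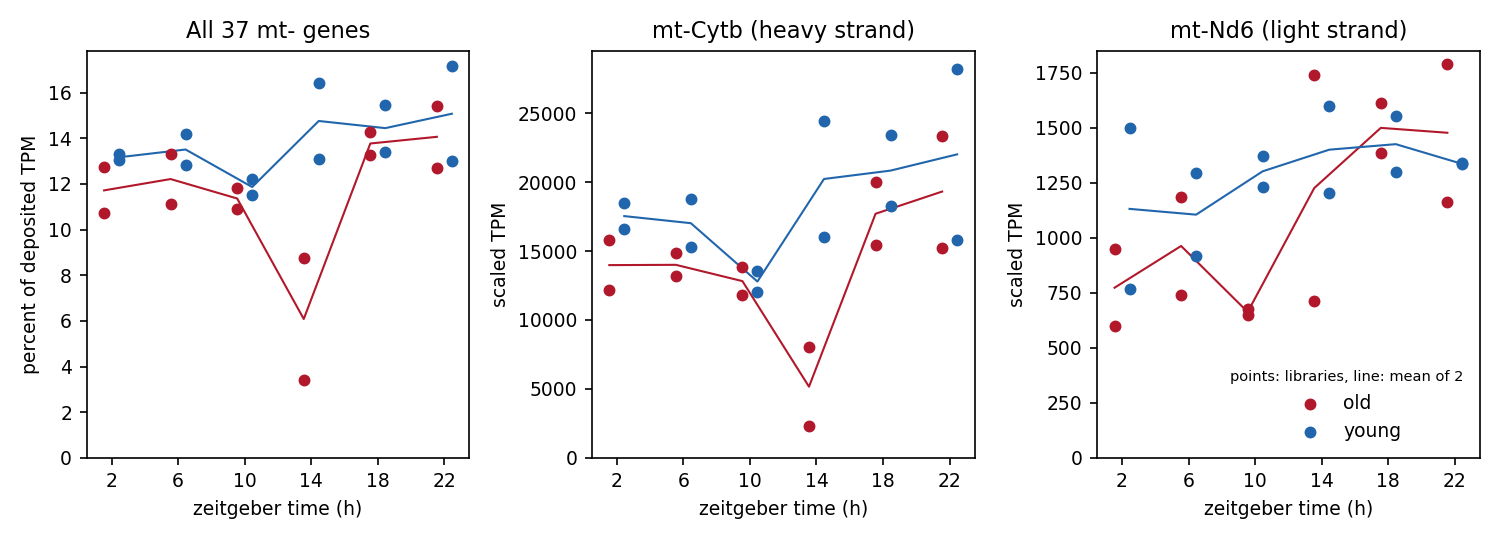
Share of TPM of all 37 members (left) and scaled TPM of mt-Cytb (middle) and mt-Nd6 (right) by zeitgeber time in hours, with 1 point per library, red for old and blue for young, and lines through the mean of 2 libraries. For the share and mt-Cytb both old ZT14 points lie below all others, while mt-Nd6 at old ZT14 had 1740 and 714.

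The first comparison asked whether single members differed between old and young liver over the day. The example of mt-Cytb, which shares no window with an annotated nuclear transcript, shows the pattern. It ran from 2291 through a median of 14341 to 23371 scaled TPM in old and from 12038 through 17407 to 28226 in young libraries. The ranges overlapped, and 3 of the 12 old libraries, both from ZT14 and replicate 2 from ZT10, lay under every young one. Its log2 difference, old minus young, was -0.54 (SE 0.183), with an adjusted p of 0.206 by limma, which compares the 2 ages over all 6 times and adjusts over all 12261 genes tested.

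Of the 32 members tested, 30 were lower in old (29 of 31 without mt-Rnr1), and 0 passed the threshold of an adjusted p under 0.05 by limma. Over all genes 201 passed (1.64%), and 0.498% passed as lower in old. An unadjusted p under 0.05 was reached by 16 of the 32 members, and by 1428 of all 12261 genes (11.6%). The median log2 difference of the members was -0.49, against -0.01 over all genes tested. On unscaled TPM the median of all genes was 0.09, and that of the members was -0.375, a difference of -0.465. All 13 protein genes were lower in old, between -0.61 in mt-Co2 and -0.21 in mt-Atp8, except that mt-Co1 was at 0.03 under quantile normalization. The mt-Co2 difference (SE 0.551, adjusted p = 0.791 by limma) includes the 3 libraries where it was far under its copy. It ranged from -1.02 to -0.20 over the alternative settings listed later. The 6 heavy-strand subunits of complex I ranged from -0.56 in mt-Nd4l and mt-Nd4 to -0.25 in mt-Nd5. In complex IV mt-Co1 was at -0.30 and mt-Co3 at -0.36, and in ATP synthase mt-Atp6 was at -0.61. The copy of mt-Atp6, Gm10925, was at -0.52. Of the 17 tRNA rows 15 were lower in old, with mt-Tt at -0.67 (SE 0.229, adjusted p = 0.206 by limma) and mt-Ti at -0.63 (SE 0.183, adjusted p = 0.110 by limma), the smallest adjusted p of all members. The 2 higher rows were mt-Td at 2.70 (SE 1.17, adjusted p = 0.368) and mt-Te, for glutamate, at 0.16 (SE 0.383, adjusted p = 0.943).

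Leaving out both old ZT14 libraries brought most members nearer to 0. The median log2 difference of the members over the remaining 5 times became -0.19, against -0.01 over all genes, and 27 of 32 were lower in old (26 of 31 without mt-Rnr1). By limma 0 passed (1.30% of all genes passed), with 1 member at an unadjusted p under 0.05, as were 9.48% of all genes. mt-Cytb was then at -0.20 (SE 0.137, adjusted p = 0.774), mt-Atp6 at -0.19, mt-Co1 at -0.08 and mt-Nd5 at -0.03. mt-Nd6 hardly moved, with -0.30 in both fits. mt-Atp8 moved to 0.13, and mt-Tw and mt-Tg moved to 0.00 and 0.02. The smallest adjusted p among the members was 0.526, for mt-Nd4l at -0.20 (SE 0.0932).

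**Figure D3:**
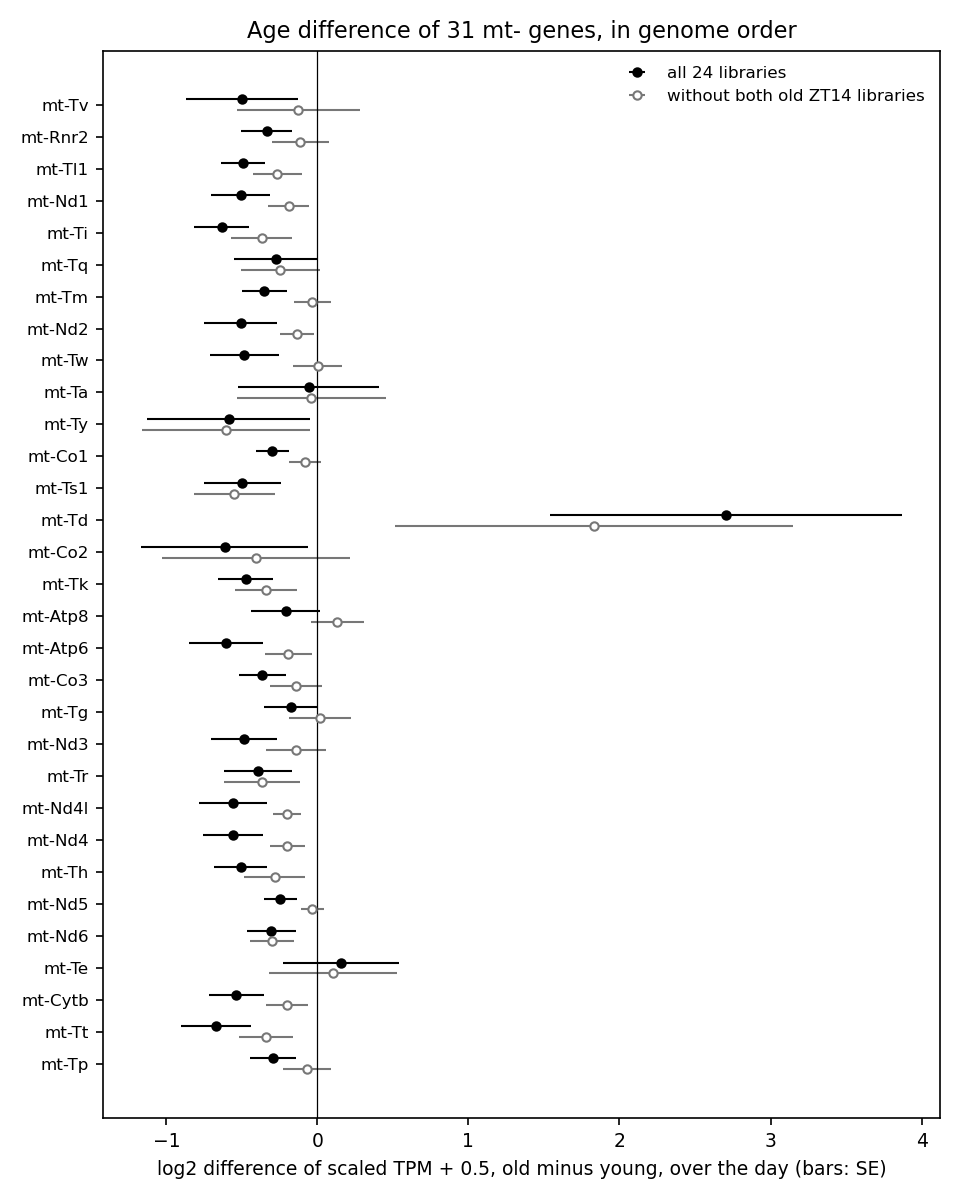
Log2 difference of scaled TPM + 0.5, old minus young over the day (x axis), for 31 members in genome order (y axis), with bars for the SE. Filled points use all 24 libraries and open points leave out both old ZT14 libraries; most open points lie nearer 0, and mt-Td is at 2.70 with and 1.83 without them.

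At ZT14 alone the members were lower in old by a median log2 difference of -1.62, and 30 of 32 were lower (29 of 31 without mt-Rnr1). Of the protein genes, mt-Atp6 was at -2.68, mt-Nd2 at -2.37, mt-Nd4l at -2.34, mt-Cytb at -2.21 (SE 0.448, adjusted p = 0.0965 by limma) and mt-Co1 at -1.38 (SE 0.270, adjusted p = 0.0837). The mt-Atp6 difference includes old replicate 1, where it was listed at 0.507 of its identical copy Gm10925. By limma 0 of 32 passed, against 0.0408% of all genes, while 23 members and 7.87% of all genes had an unadjusted p under 0.05. For 23 members both old libraries lay under both young ones, which held for 17.1% of all genes tested. At the other times by limma 0 of 32 members passed at ZT2 (0% of all genes), at ZT6 (0%), at ZT10 (0.530%), at ZT18 (0.0245%) and at ZT22 (0.00816%). Unadjusted p under 0.05 were reached by 5 members at ZT2 (4% of all genes), 0 at ZT6 (4.04%) and 1 each at ZT10 (7.92%), ZT18 (4.63%) and ZT22 (3.04%). Without mt-Rnr1 these were 4 members at ZT2 and 0 at ZT18. Median differences were -0.32, -0.22, -0.09, -0.15 and -0.09 at these 5 times.

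Away from ZT14 the groups separated less. Both old libraries were under both young ones for 15 members at ZT2 (17.6% of all genes), 7 at ZT6 (14.1%), 3 at ZT10 (19.8%), 6 at ZT18 (14.3%) and 1 at ZT22 (11.3%). The 6 at ZT18 include mt-Rnr1, through its listed zeros in old. Both old libraries were above both young ones for 1 member at ZT2 (16.5% of all genes), 0 at ZT6 (13.3%) and 3 at ZT10 (16.1%). The same held for 2 members at ZT18 (13.6%) and 1 at ZT22 (11.0%). The 1 at ZT2 was mt-Rnr1, through its listed zeros in young. The member with the smallest p at ZT10 was mt-Nd6, the complex I subunit on the light strand, with 675 and 651 scaled TPM in old, against 1232 and 1374 in young. Both old values lay under both young ones, and the log2 difference was -0.97 (SE 0.397, adjusted p = 0.504 by limma). Whether the age difference varied over the 6 times was tested by an interaction, which 0 of 32 members passed by limma (0.0163% of all genes passed). An unadjusted p under 0.05 was reached by 10 members, 9 without mt-Rnr1, and by 3.6% of all genes.

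The 2 old ZT14 libraries were unlike each other. In replicate 2 the 12 heavy-strand messengers were evenly low, at 0.503 to 0.624 of the median of the 22 libraries of the other groups, and light-strand mt-Nd6 was at 0.565 of it. In replicate 1 the heavy-strand messengers spanned 0.0735 to 0.399 of that median, and mt-Nd6 was at 1.38. Of the 12 heavy-strand messengers 11 were under all 22 other libraries in replicate 1 and 11 in replicate 2, the exception being mt-Co2 in both. Replicate 1 was under the other 22 for 9.14% of all genes tested, and replicate 2 for 4.40%.

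The size of the difference in replicate 1 varied between genes. mt-Nd4l had 302 scaled TPM there and 2176 in replicate 2, against 4121 and 4091 in young ZT14. mt-Atp6 had 1454 and 9832 in old, against 30960 and 18868 in young ZT14. Relative to the median of the other 22 libraries, replicate 1 was 13.6-fold lower for mt-Nd4l, 13.2-fold for mt-Atp6, 12.9-fold for mt-Nd2, 9.08-fold for mt-Nd4 and 6.89-fold for mt-Nd1 and mt-Cytb. In replicate 1 mt-Atp6 was at only 0.507 of its identical copy Gm10925, which had 2867 scaled TPM, against 14705 to 37055 in the other 22 libraries. The 13.2-fold is therefore for the level assigned to the gene, and how reads were divided was not tested. The 3 complex IV genes, mt-Co1, mt-Co2 and mt-Co3, were only 2.50-fold to 2.99-fold lower and mt-Nd5 3.50-fold. As a share of the 13 messengers, mt-Co1 was thus 23.6% in replicate 1, against 11.98% to 17.5% in the other 22 libraries, and mt-Nd2 was 3.23%, against 7.04% to 10.2%.

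Of the light-strand members, mt-Nd6 and most tRNAs were not low in replicate 1. mt-Nd6 had 1740 scaled TPM in replicate 1 and 714 in replicate 2, against 1202 and 1600 in young ZT14, so the ages overlapped. It was 6.94% of the summed heavy-strand messengers in replicate 1, against 0.483% to 1.30% in the other 22 libraries. Of the 6 tested light-strand tRNAs 0 were under all 22 others in replicate 1, and mt-Tq, for glutamine, and mt-Te were at 2.04 and 1.92 times the median. The ratios of mt-Ts1, mt-Ty and mt-Tp were 1.30, 1.15 and 0.991, and mt-Ta was listed at 0 there, as in 7 other libraries. Of the 11 tested heavy-strand tRNAs 7 were under all 22, with mt-Tw lowest at 0.0619 of the median. mt-Rnr2, at 0.660 of the median, was not. These light-strand tRNA levels rest on few reads, a median of 11.96 per library for mt-Tq and 4.72 for mt-Te.

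**Figure D4:**
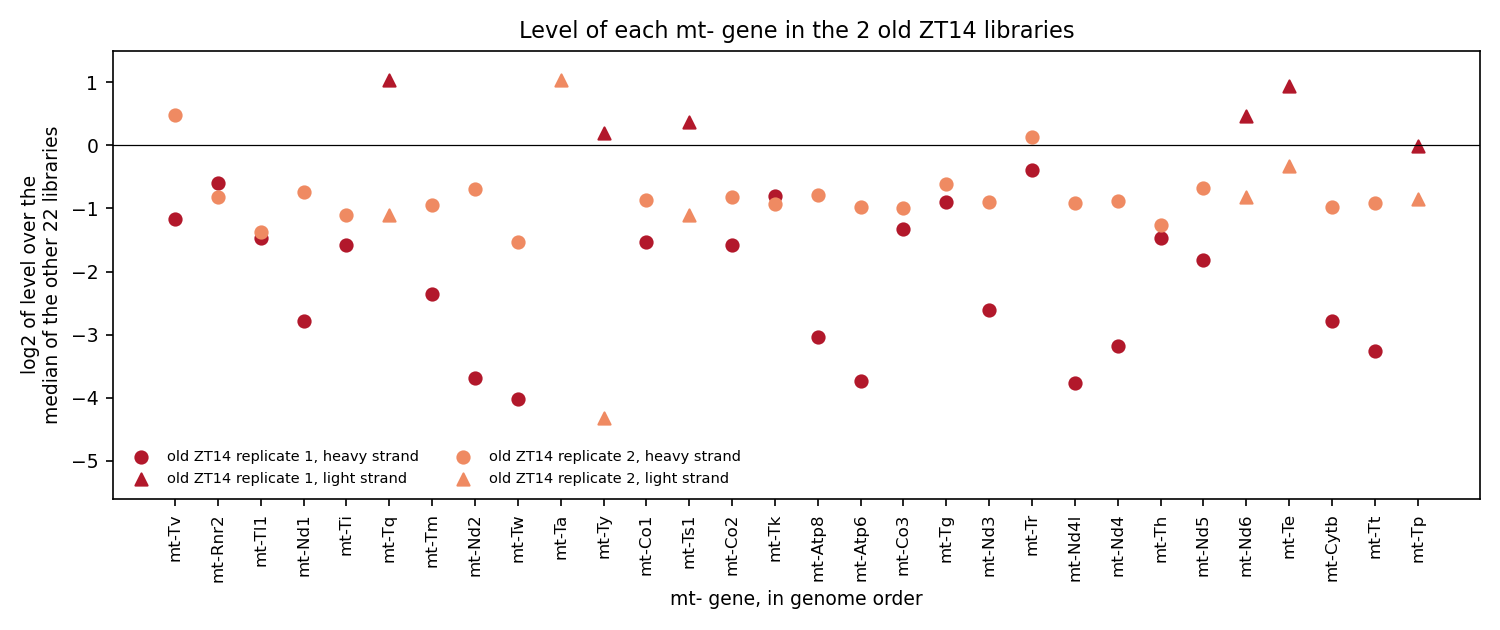
Log2 of the level in each old ZT14 library over the median of the other 22 libraries (y axis) for 30 members in genome order (x axis), with circles for heavy-strand and triangles for light-strand genes. Replicate 1 is 13.6-fold lower for mt-Nd4l and lowest for mt-Tw, and lies above 0 for the light-strand genes mt-Nd6, mt-Tq, mt-Te, mt-Ts1 and mt-Ty, while the protein genes of replicate 2 lie between ratios of 0.503 and 0.624; mt-Rnr1 and mt-Td are left out, and mt-Ta was at 0 in replicate 1.

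Most other measures of replicate 2 lay inside the range of the rest, while replicate 1 lay outside it for some markers of other cells. Depth was equivalent to 12330000 and 10065000 reads, against 8699000 to 13653000 in the other 22. The scaling factor was 1.18 and 1.23, above the 0.817 to 1.16 of the other 22, and 16690 and 16371 genes were above 0, against 15989 to 16571. Summed hepatocyte markers were 108210 and 80468, against 74777 to 106840, so replicate 1 was just above that range. Macrophage markers summed to 255 and 337 (218 to 651 elsewhere). In replicate 1, however, 4 of the 7 were under all 22 other libraries: Vsig4 at 24.3 scaled TPM (40.4 to 110 elsewhere), Cd68 at 5.46 (9.13 to 25.2), Csf1r at 10.3 (10.4 to 37.9), and Timd4. Fabp4, from the adipocyte list, was also under all 22 there, at 9.68 (10.7 to 30.7). Plin1 and Lep of that list were at 0 in all libraries, so the cells behind Fabp4 cannot be told. Of 8 hepatocyte markers Ass1 lay under and Apoa1 above all 22 in replicate 1. In replicate 2 0 of these markers lay outside the range of the other 22. B and plasma cell markers to 118 and 208 (11.7 to 596), neutrophil markers to 2.63 and 31.9 (2.27 to 133), erythroid markers to 2116 and 1315 (1103 to 3775) and nuclear-retained RNAs such as Malat1 to 34.8 and 27.6 (16.5 to 78.0). Pancreatic acinar markers were at 0 in both. The part of these measures in the low mitochondrial levels was not tested.

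The calls at ZT14 depended on which of the 2 libraries was kept. Without replicate 2, so that replicate 1 stood alone and was assumed to vary like the other groups, 13 members passed by limma at ZT14 (0.433% of all genes), 9 over the day (1.79%) and 6 in the interaction (0.163%). mt-Nd4l was then at -3.77 at ZT14 (adjusted p = 2.04e-06 by limma) and at -0.79 over the day (adjusted p = 0.000208). Without replicate 1, 0 members passed in any of these 3 tests, mt-Nd4l was at -0.92 and mt-Cytb at -1.30 at ZT14, and the median of the members over the day was -0.36.

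A further comparison asked whether any member changed its share within the mitochondrial transcripts. Each library was rescaled to the sum of its 13 messengers in place of all genes. These messengers are themselves members, so the median of the members and the direction over all genes were largely set by this scale. The median log2 difference of the 32 members was then -0.04, with 18 lower in old (17 of 31 without mt-Rnr1). By limma 0 members passed, against 6.77% of all genes, of which 822 of 830 were higher in old on this scale. Unadjusted p under 0.05 were reached by 49.4% of all genes and by 2 members, mt-Td and mt-Rnr1, of which the second rests on its listed zeros. mt-Td was at 3.13 (SE 0.966, adjusted p = 0.0521 by limma).

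mt-Td stood out because it was listed at 2 levels. How the authors' software assigned reads between mt-Td and its neighbour mt-Co2 could not be checked from these tables, so the levels of both are given as listed. It had 314 to 3844 scaled TPM in 6 libraries, 5 old and 1 young, and 1.29 to 11.0 in the other 18. The 6 were both old ZT2 libraries (3196 and 718), old ZT10 replicate 1 (3363), both old ZT14 libraries (314 and 1182) and young ZT2 replicate 1 (3844). At ZT2 the young replicates therefore differed by 3844 against 1.29, and at ZT10 the old replicates by 3363 against 2.50. No library lay between 11.0 and 314.

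mt-Co2, subunit II of complex IV, which lies beside mt-Td, was low in 3 of those 6 libraries. It had 606 scaled TPM in old ZT2 replicate 2, 837 in old ZT10 replicate 1 and 354 in young ZT2 replicate 1, and 3406 to 19690 in the other 21. In the same 3 libraries its copy Gm28661 had 7538, 10044 and 13089, and mt-Co1 was between 15671 and 20305. Elsewhere mt-Co2 was 0.991 to 1.07 times Gm28661. In the other 3 libraries high in mt-Td, old ZT2 replicate 1 and both old ZT14, mt-Co2 was 1.05 to 1.07 times Gm28661. Gm28661 averaged 9146 ± 2972 in old and 12374 ± 3949 in young libraries (SD, n = 12 each), a log2 difference of -0.46 (SE 0.158, adjusted p = 0.206 by limma).

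**Figure D5:**
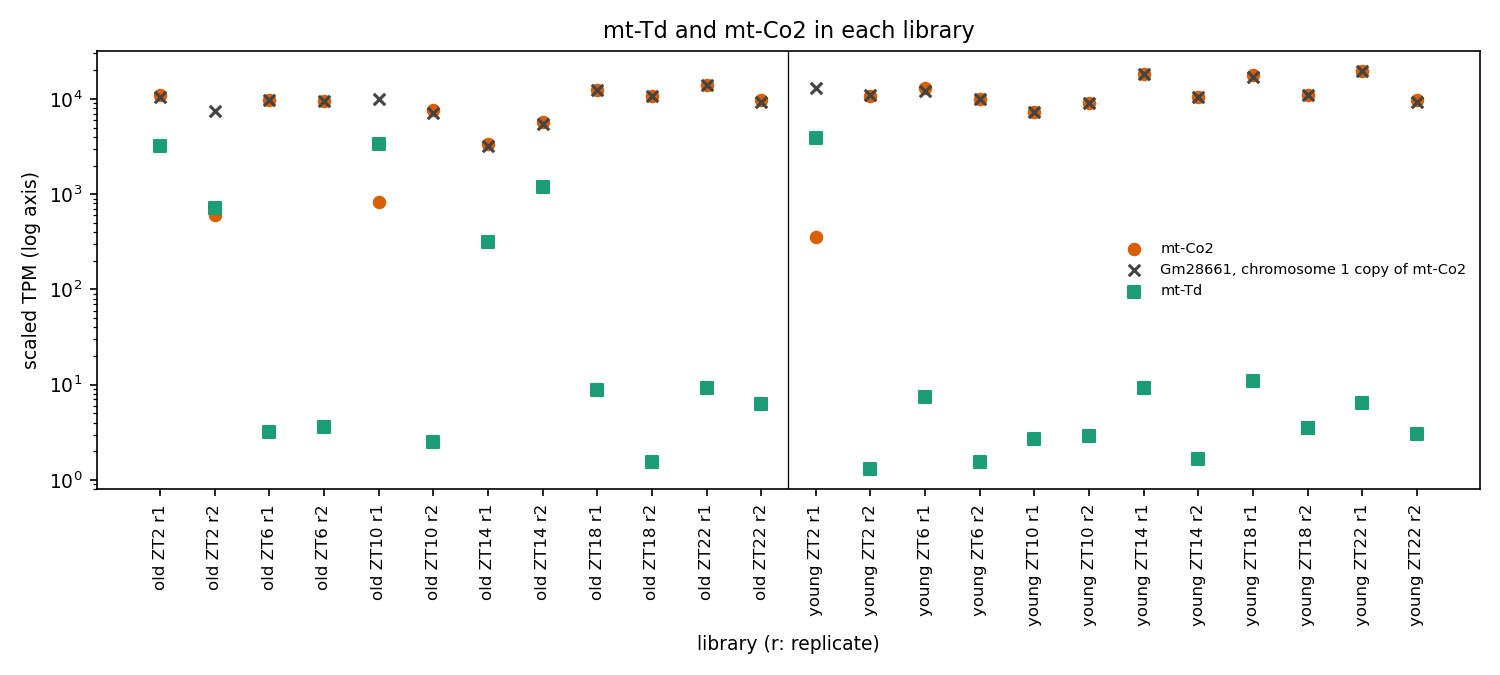
Scaled TPM (log axis) of mt-Td, mt-Co2 and the copy Gm28661 in each library, old left of the line and young right of it. mt-Td is at 314 or more in 6 libraries and at 11.0 or less in 18, and mt-Co2 lies well under Gm28661 in 3 libraries.

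Rhythms over 24 h were tested on the same values. In young liver 0 of 32 members passed by limma (10.7% of all genes) and 1 had an unadjusted p under 0.05, as did 25.1% of all genes. In old liver 0 passed (8.96% of all genes) and 15 had an unadjusted p under 0.05, as did 22.8% of all genes. On the mean of both ages 1 passed (23.9% of all genes), and in the difference between ages 0 passed (0% of all genes), with 1 member and 430 genes (3.51%) at an unadjusted p under 0.05. The fitted amplitude, the log2 difference between peak and trough, had a median over the 13 protein genes of 1.31 in old and 0.44 in young. Without both old ZT14 libraries the medians were 0.45 in old and 0.44 in young.

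The member called was mt-Tg. Its mean was highest at ZT22, with 37.3 and 20.7 scaled TPM in old and 27.9 and 23.1 in young. Low values were 9.004 and 11.0 in old at ZT14, 9.80 and 11.3 in old at ZT6, and 11.4 and 8.96 in young at ZT10, while young ZT14 had 33.3 and 14.9. The amplitude was 1.33 in old, with a peak at ZT21.6, and 0.76 in young, with a peak at ZT20.8 (adjusted p = 0.0268 on the mean of both ages by limma). The call was lost without young ZT10 replicate 1, young ZT10 replicate 2, young ZT22 replicate 1 or old ZT22 replicate 1, each alone. Without both old ZT14 libraries it was kept (adjusted p = 0.0410), and mt-Tq, mt-Nd4, mt-Nd4l and mt-Nd6 also passed, 5 of 32 members against 19.3% of all genes. mt-Nd4 then peaked at ZT19.8 in old (amplitude 0.54) and ZT19.9 in young (0.50; adjusted p = 0.0385 by limma), and mt-Nd6 at ZT19.2 in old (1.06) and ZT16.2 in young (0.44; adjusted p = 0.0453).

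Among themselves the heavy-strand messengers moved together across libraries. Pearson's r of log2 levels with mt-Cytb over the 24 libraries was 0.989 for mt-Atp6 and mt-Nd4, 0.985 for mt-Nd1, 0.981 for mt-Co1 and 0.943 for mt-Nd2, as a description without a p, since the genes share libraries and precursors. It was 0.325 for mt-Co2, 0.048 for light-strand mt-Nd6 and -0.310 for mt-Td. Without both old ZT14 libraries it was 0.982 for mt-Atp6, 0.859 for mt-Nd2, 0.422 for mt-Nd6, and -0.054 for mt-Atp8, which had been 0.741.

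Nuclear genes of the same complexes were lower in old in nearly every case, with medians nearer to 0, and 0 passed by limma (13 of 75 at an unadjusted p under 0.05). Of 36 nuclear subunits of complex I 36 were lower in old, with a median of -0.15 and Ndufa10 (117 ± 26.4 in old and 152 ± 27.8 scaled TPM in young, adjusted p = 0.0661) smallest in p. For complex III 8 of 9 were lower (median -0.24, Uqcrc2 at -0.32), for complex IV 10 of 11 (median -0.19, Cox6b1 at -0.19), for ATP synthase 14 of 15 (median -0.18, Atp5j at -0.34), and for complex II, which has no mitochondrially encoded subunit, 4 of 4 (median -0.14, Sdhd at -0.15). Over all genes 53.0% were lower in old, 1.64% passed by limma and 11.6% had an unadjusted p under 0.05. Complex III gives the largest of these medians, and all lie between that of all genes and the -0.51 of the 13 mitochondrial messengers. At ZT14 the medians of the complexes were -0.29 to -0.39, against -2.09 for the 13 messengers. Without both old ZT14 libraries the medians over the day were -0.10 to -0.17, against -0.19 for the 13 messengers.

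Genes that transcribe, copy and process mitochondrial DNA and RNA gave smaller differences. Of 15 tested genes of transcription and copy 12 were lower in old, with a median of -0.07 and 0 called (0 at an unadjusted p under 0.05). Tfam, which packs mitochondrial DNA and starts its transcription, was at 19.6 ± 2.25 in old and 20.8 ± 3.46 scaled TPM in young (log2 -0.07), and Polrmt, the mitochondrial RNA polymerase, at 0.17. Of 20 genes of RNA processing and stability 16 were lower, with a median of -0.10 and 0 called (5 at an unadjusted p under 0.05). The smallest p there was that of Ptcd3 (log2 -0.24, adjusted p = 0.0647), then Trmt10c, a subunit of the mitochondrial ribonuclease P that cuts tRNA ends (10.7 ± 1.86 in old and 13.7 ± 3.86 in young, log2 -0.31, adjusted p = 0.0846). Pnpt1, which degrades mitochondrial RNA, was at -0.32 (adjusted p = 0.105). Of 8 regulators of mitochondrial biogenesis 7 were lower (median -0.09) and of 12 genes of mitochondrial mass and outer membrane 10 (median -0.07), with 0 called in either (2 and 1 at an unadjusted p under 0.05). Of all genes tested 1.64% were called and 11.6% had an unadjusted p under 0.05. The p-values in this paragraph and the last are limma's, adjusted over all genes unless said to be unadjusted.

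Some markers of other cells were called higher in old by limma, where 1.64% of all genes were called in either direction. Of 3 tested B and plasma cell markers 2 rose in old, Igkc and Ighm, and the summed level of the list was 104 to 596 in old and 11.7 to 53.1 in young libraries. Of 7 macrophage markers 1 rose, Marco (28.5 ± 14.1 in old and 6.24 ± 2.46 scaled TPM in young), and the list summed to 218 to 651 in old and 218 to 291 in young. Of 2 tested neutrophil markers 2 rose, S100a9 and S100a8, and the list summed to 2.63 to 133 in old and 2.27 to 22.5 in young; Ly6g was at 0 in all libraries. Of 2 tested adipocyte markers 0 were called (1 at an unadjusted p under 0.05), the list summed to 10.7 to 29.4 in old and 13.3 to 30.7 in young, and Plin1 and Lep were at 0 in all libraries. Of 5 tested erythroid and 8 tested pancreatic acinar markers 0 were called. The part of these cells in the mitochondrial levels was not tested.

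A set of 8176 nuclear genes averaging 5 TPM or more was ranked by likeness to the log2 of the summed mitochondrial messengers over all 24 libraries. Of the 20 most alike, 13 were nuclear copies that share windows with members. The others that are not predicted genes with a Gm number were 4. Of these, Cfhr2 (complement factor H-related 2) had a Pearson's r of 0.955, Ndufb4 (complex I) 0.903, Atp5j (ATP synthase) 0.895 and Chac2 0.888. Without both old ZT14 libraries these were 0.966, 0.929, 0.876 and 0.835. At the other end were Ddx23 (-0.910) and Sf3b2 (-0.867), both of the spliceosome, Rrp1 (-0.838), Sgta (-0.831) and Tcf25 (-0.812), at -0.706, -0.793, -0.664, -0.746 and -0.463 without the 2 libraries. The correlations share the same libraries and scaling and have no p.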

How the data were processed

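The authors' deposited tables hold coverage, FPKM and TPM for every gene in every library. Per the submitters' processing notes, the tools named are HISAT2 and StringTie and the build is GRCm38, with no versions given. The deposited coverage, named so in the file headers, was taken here as reads per base of a gene. The deposited FPKM was taken as that coverage relative to the library's depth, and the TPM deposited by the authors as FPKM brought to one total per library. No read counts were used, so depth was computed from the ratio of coverage to FPKM and reads per gene from coverage, and single values carry no counting interval.

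TPM were divided by median-of-ratios factors (13270 genes above 0 in all 24 libraries). The 12261 genes averaging 1 TPM or more were tested on log2(scaled TPM + 0.5), on which scale changes of low rows such as tRNAs are understated. Tests used limma 3.58.1 in R 4.3.3, with moderated variances that follow the level. Age differences and their interaction with time came from a model of the 12 groups of age and time (12 residual df). Rhythms came from a model with a 24 h cosine and sine for each age (18 residual df). P-values were adjusted by Benjamini-Hochberg over all genes tested, with a threshold of 0.05. The steps were tested on simulated data. Windows of 50 bases of each member were looked up in all other GENCODE M21 transcripts, on either strand, with Python 3.11.15, pandas 2.3.3, numpy 2.4.6 and Biopython 1.88. Plots used matplotlib 3.10.9.

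The members, gene lists and tests were chosen with earlier results of these data known. All members are accounted for. Of each list up to 4 genes with the smallest p of the age comparison are named, and Tfam, outside that rule, was named after its values were seen. Of the genes most and least like the messengers up to 5 are named at each end, and copies and predicted genes were passed over. Alternatives were unscaled TPM, unscaled FPKM, quantile normalization, TPM rescaled without the members, pseudocounts of 0.1 and 1, no filter, a filter at 5 TPM, variances that do not follow the level, a replicate block, each library left out and both old ZT14 libraries left out. Chosen after seeing the data were copies on chromosome 1 added to their genes, and 3 libraries low in mt-Co2 left out.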

Additional observations from a re-analysis of the deposited data

Results flagged for a closer look

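The levels of the nuclear copies lie outside the comparisons of members and were high. Each of the 7 copies on chromosome 1 had a level in the range of messenger RNAs, with a mean over 24 libraries of 15726 scaled TPM for Gm29216 (copy of mt-Co1), 10760 for Gm28661 (mt-Co2), 20409 for Gm10925 (mt-Atp6), 15017 for Gm28437 (mt-Co3), 5029 for Gm28438 (mt-Nd3), 3718 for Gm10222 (mt-Nd4l) and 5086 for Gm28439 (mt-Nd4). The copies on chromosome 2 were lower, with 3755 scaled TPM for Gm13340 (mt-Co1), 2718 for Gm13341 (mt-Co2) and 1203 for Gm13339 (mt-Nd2), and are not part of the shares that follow. With the 7 chromosome 1 copies included, the mitochondrial share of TPM was 18.3% ± 4.95 in old and 21.8% ± 2.87 in young libraries (SD, n = 12 each). Old ZT14 replicates 1 and 2 had 5.67% and 13.5%, against 17.2% to 27.5% in the other 22 libraries. How many of these reads came from chromosome 1 cannot be told from the tables. Each age and time had 2 libraries, so single libraries were not tested as outliers.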

How the results depend on the processing

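Counts of members called by limma over the day, 0 with all libraries, were 2 with a replicate block (mt-Tl1 and mt-Ti) and, in an alternative chosen after seeing the data, 1 without the 3 libraries low in mt-Co2 (mt-Td), and 0 to 9 with 1 library left out, the 9 without old ZT14 replicate 2 and 1 (mt-Tl1) without old ZT2 replicate 1. Same-numbered libraries deviated together in 52 of 66 pairs of groups (correlation over 0.1) but not in all (lowest -0.158), so the numbers were not taken to pair libraries. The replicate block also gave 1 call at ZT14, 2 for rhythm in old, 3 for rhythm on the mean of both ages and 1 (mt-Td) relative to the mitochondrial total. Without the 3 libraries low in mt-Co2 there was 1 call each at ZT2, at ZT14, in the interaction and relative to the total, and 2 for rhythm in old. These 3 libraries are among the 6 high in mt-Td and include the only young one, and at ZT2 1 library per age was left, each assumed to vary like the other groups, so nothing is drawn from these calls. The filter at 5 TPM gave 1 call relative to the total. Apart from the fits without both old ZT14 libraries or old ZT14 replicate 2, shares of all genes called are not given for the alternatives. Their counts of members therefore cannot be set against all genes. Without both old ZT14 libraries the median difference was -0.19 in place of -0.485, and 5 members were called for rhythm on the mean of both ages.

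With 1 library left out, the median difference ranged from -0.549 to -0.356 and the mitochondrial share, old minus young, from -2.62 to -1.53 percentage points. Calls ranged from 0 to 13 at ZT14, 0 to 6 in the interaction, 0 to 1 for rhythm in young, 0 to 2 for rhythm in old, 0 to 4 for rhythm on the mean of both ages and 0 to 8 relative to the total, and were 0 at ZT2, ZT6, ZT10, ZT18 and ZT22 and for the rhythm difference.

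Directions turned for mt-Co1 under quantile normalization (0.028), for mt-Atp8 (0.133), mt-Tw (0.002) and mt-Tg (0.018) without both old ZT14 libraries, and, with 1 library left out, for mt-Te (-0.145 to 0.462) and mt-Ta (-0.281 to 0.164). The cause of these changes was not tested. Of the 31 members other than mt-Rnr1, 24 were lower in old under every one of the 37 alternatives that tested them. tRNA rows are limited by depth, and levels of the 7 genes with annotated chromosome 1 copies by the sharing of reads. For the members that lie between these genes such sharing was not checked.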
